A study of Rattus norvegicus with 12 samples.

Results

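The heat shock proteins and co-chaperones of the rat heart were examined in RNA-seq libraries from the middle region of the left ventricle of rats with or without a myocardial infarction. A gene was included when its symbol in the deposited table started with Hspa, Hspb, Hspd, Hspe, Hsph, Hsp90, Dnaja, Dnajb, Dnajc, a numbered Bag or a numbered Hsf, or was Cryab or Stip1. This name rule took 85 of the 30560 genes listed, and 81 of them were among the 18182 genes with at least 10 counts in total, which were the genes tested. The 4 members below that count were Dnajb8 with 0 counts, Dnajc5g with 2, Dnajc5b with 6 and Hspb9 with 9. The inducible Hsp70 genes Hspa1a and Hspa1b were not analysed here.

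All rats were male Wistar rats, 7 weeks old at surgery, and each library came from 1 rat. Sham rats (rats 12, 17, 32 and 38) had the chest opened without a ligature and received the carboxymethylcellulose vehicle. MI rats (36, 57, 61 and 89) had a permanent ligation of the left anterior descending coronary artery and received the same vehicle. MI + UA rats (29, 58, 64 and 66) had the ligation and were gavaged daily for 8 weeks with urolithin A (UA), a gut microbial metabolite of ellagitannins known to promote mitophagy, given as 50 mg/ml. The sources differ on the dose and on whether treatment began on the day after surgery or later, so both are uncertain. Rat 66 carried the MI + UA label but was listed among vehicle-treated MI rats in the echocardiography records, so results that rest on it are also given with that rat counted in MI or left out. No group of sham rats given UA was sequenced, and RNA came from fixed, paraffin-embedded tissue after 8 weeks of heart failure, not from the acute phase.

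Reads on genes numbered 6228706 to 8958828 in Sham, 6829591 to 12743184 in MI and 6819444 to 19031695 in MI + UA, and the mitochondrially encoded genes took 50.2% to 58.6% of them. Levels are given as TMM-normalised CPM, the reads of a gene relative to all reads of its library. TMM is a scaling that corrects for differences in library composition. CPM is not divided by gene length, so levels are compared between rats for 1 gene and not between genes. Counts carried no copy of a library: the closest replicates of a group differed by a chi-square of 1.89 per degree of freedom over genes, above sampling noise.

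Chaperones are proteins that help others fold, stay soluble or cross membranes. Hsp70 proteins bind short unfolded stretches and are driven by J-domain proteins (the Dnaj families), which start their ATP cycle, and by nucleotide exchange factors such as the Bag proteins and Hsp110. Hsp90 proteins finish the folding of kinases and steroid receptors, small heat shock proteins hold unfolded proteins and are abundant in striated muscle, and separate sets work in mitochondria (Hspd1, Hspe1, Hspa9) and in the endoplasmic reticulum (ER; Hspa5, Hsp90b1). Heat shock factor 1 (Hsf1) switches on the cytosolic set under heat or proteotoxic stress by binding heat shock elements in promoters, and ER stress acts through ER stress elements.

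The promoters of 4 members are shown because they carry the 2 kinds of element and belong to genes whose values are described here. A promoter was the RefSeq window (build GRCr8) of 300 bases around the annotated start of transcription. A heat shock element was searched as at least 3 units of GAA and TTC in turn with 2 bases between units, on both strands. An ER stress element was searched on both strands as CCAAT and CCACG with 9 bases between them. Matches are in capitals.
Hsph1 (chr12:10427118-10427417, plus strand): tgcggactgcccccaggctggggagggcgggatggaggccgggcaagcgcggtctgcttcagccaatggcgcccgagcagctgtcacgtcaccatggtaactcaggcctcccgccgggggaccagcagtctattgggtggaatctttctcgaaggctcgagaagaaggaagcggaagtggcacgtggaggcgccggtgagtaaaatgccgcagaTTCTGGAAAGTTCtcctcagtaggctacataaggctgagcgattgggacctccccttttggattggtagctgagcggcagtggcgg
Dnaja1 (chr5:60638154-60638453, plus strand): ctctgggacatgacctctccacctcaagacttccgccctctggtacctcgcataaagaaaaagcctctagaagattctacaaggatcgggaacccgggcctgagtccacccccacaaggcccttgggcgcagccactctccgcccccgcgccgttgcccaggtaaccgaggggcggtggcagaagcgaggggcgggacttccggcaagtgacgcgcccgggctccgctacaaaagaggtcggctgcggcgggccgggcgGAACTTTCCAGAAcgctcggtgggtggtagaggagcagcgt
Hspe1 (chr9:64084077-64084376, plus strand): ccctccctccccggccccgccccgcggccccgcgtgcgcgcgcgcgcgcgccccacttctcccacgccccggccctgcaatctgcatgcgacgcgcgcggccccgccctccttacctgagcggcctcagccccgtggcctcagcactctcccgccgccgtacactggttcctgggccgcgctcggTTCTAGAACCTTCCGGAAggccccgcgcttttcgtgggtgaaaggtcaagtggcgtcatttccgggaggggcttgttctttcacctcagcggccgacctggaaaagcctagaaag
Hspa5 (chr3:38452766-38453065, plus strand): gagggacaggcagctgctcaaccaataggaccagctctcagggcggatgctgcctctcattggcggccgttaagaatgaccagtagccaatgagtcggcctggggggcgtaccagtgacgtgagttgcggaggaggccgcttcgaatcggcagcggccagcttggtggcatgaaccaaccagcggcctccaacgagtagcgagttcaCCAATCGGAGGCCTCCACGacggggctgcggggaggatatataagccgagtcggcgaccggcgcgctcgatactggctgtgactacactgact

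A promoter was matched by symbol for 67 of the 85 members. The heat shock element was found in 5 of these 67 (7.46%), which were Hsph1, Dnaja1, Hspa8, Hspd1 and Hspe1, against 267 of all 33469 promoters in the table (0.798%). The element of 18 bases at chr9:64084262-64084279 was the same stretch for Hspd1 and Hspe1, whose genes lie head to head on opposite strands. The ER stress element was found in Hspa5, Hsp90b1 and Dnajc3, which are 3 of the 13 ER members with a promoter, against 22 of all 33469 promoters (0.0657%). Finding no match, as for Dnajb1 and Stip1, says only that these letters were absent from this window. No promoter was matched for Hsp90aa1, Cryab or Hsf1.

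The comparison of MI with Sham asked which chaperones differed in the failing heart. Lower levels in MI were called for 6 of the 10 mitochondrial members, and no member of the small heat shock, cytosolic Hsp70, Hsp110, cytosolic Hsp90, Bag or heat shock factor classes was called with edgeR. Of the 81 members tested, 6 were lower in MI at an adjusted p under 0.05 (edgeR quasi-likelihood test, Benjamini-Hochberg adjusted over all genes), and all of these belonged to the 10 members that work in mitochondria. Over all genes tested 5.53% were called lower. Only 1 member, the ER protein gene Dnajc1, was called higher with edgeR, against 5.82% of all genes. DESeq2 called 8 members, the same 6 mitochondrial ones and the cytosolic J-domain genes Dnaja2 (-0.26, DESeq2 adjusted p = 0.0486) and Dnajb6 (-0.26, DESeq2 adjusted p = 0.0419), and did not call Dnajc1. Across the 18182 genes tested, DESeq2 called 2184. Over the 19 alternatives 5 to 8 members were called. The CPM ranges of MI and Sham did not overlap for 10 members, against 15.7% of all genes. These 10 were the 7 called members, Bag3, and Bag6 and Dnajc3, which were picked out after their values were seen.

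**Figure D1:**
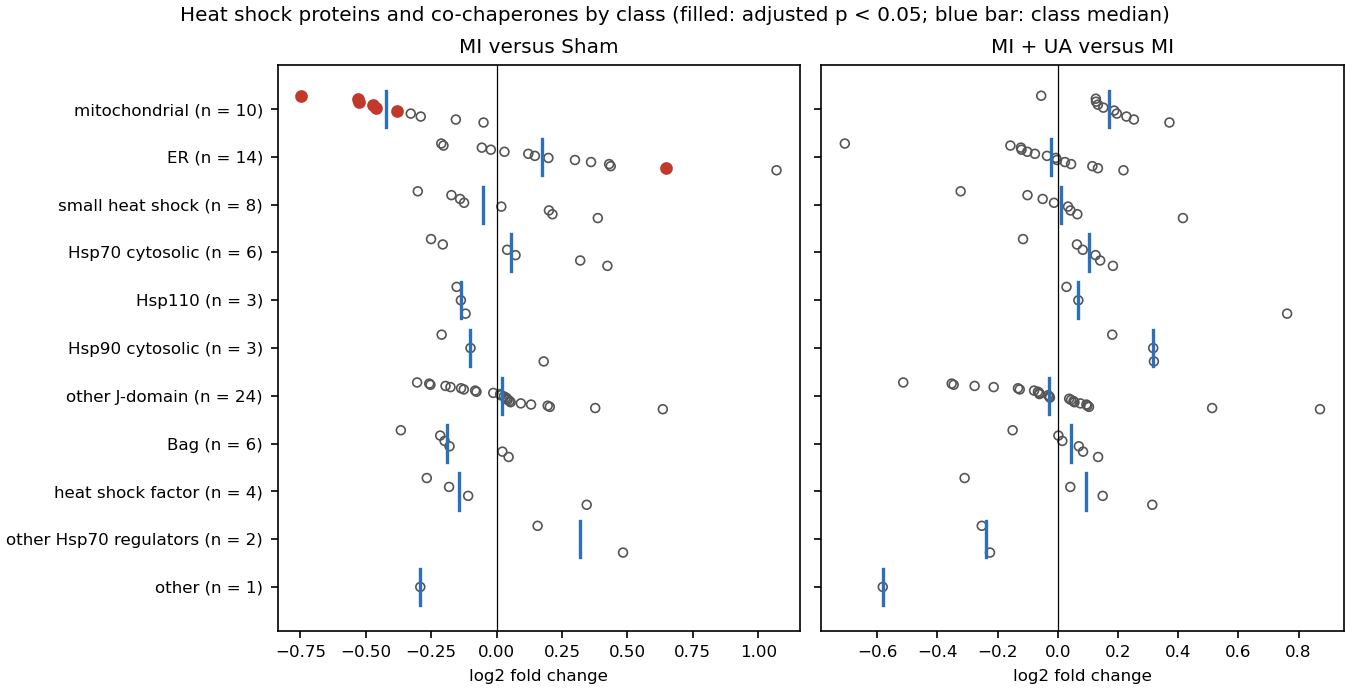
Log2 fold change (x axis) of the 81 tested members by class (y axis) for MI versus Sham on the left and MI + UA versus MI on the right. Each circle is a gene, filled where the adjusted p was under 0.05, and the blue bar is the class median. All 10 mitochondrial members lie below 0 on the left, with 6 filled, and no circle is filled on the right.

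All 10 mitochondrial members had a log2 fold change below 0, with a median of -0.42, where the median of all genes tested was 0.03 and that of the 71 other members was 0.02. In the 19 alternative analyses, 9 or 10 of the 10 were below 0, the median lay between -0.49 and -0.36, and 5 or 6 were called. Hspa9, the mitochondrial Hsp70 (mortalin) that pulls imported proteins into the matrix, stood at 159.0, 181.4, 183.3 and 195.7 CPM in Sham rats, at 111.6, 127.1, 129.2 and 131.7 CPM in MI rats and at 128.4, 141.8, 141.9 and 156.0 CPM in MI + UA rats. Every MI rat was below every Sham rat. Its log2 fold change in MI was -0.53 ± 0.09 (SE), with an edgeR adjusted p of 0.000403.

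Hspd1 encodes Hsp60, which with its lid Hsp10, encoded by Hspe1, forms the folding chamber of the matrix. Hspd1 stood at 54.6, 66.2, 66.7 and 69.0 CPM in Sham, at 36.1, 44.8, 45.1 and 52.2 CPM in MI and at 53.2, 53.2, 56.2 and 66.5 CPM in MI + UA. Its MI rats lay below all Sham rats and also below all MI + UA rats. Hspd1 differed between MI and Sham by a log2 fold change of -0.53 ± 0.11 (SE; edgeR adjusted p = 0.00308), and with rat 66 counted in MI this was -0.38 with an adjusted p of 0.057. Hspe1 stood at 37.9 to 47.8 CPM in Sham, 28.6 to 40.0 CPM in MI and 34.7 to 48.4 CPM in MI + UA. It did not pass the test, at a log2 fold change of -0.29 ± 0.12 (SE; edgeR adjusted p = 0.149).

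The J-domain partners of Hspa9 and other mitochondrial J-domain genes were called as well. Dnajc28 stood at 15.2, 16.0, 21.9 and 22.1 CPM in Sham, at 9.13, 11.2, 12.1 and 12.4 CPM in MI and at 11.5, 11.7, 12.8 and 13.1 CPM in MI + UA. Both MI groups lay below all Sham rats, and its log2 fold change in MI, -0.75 ± 0.14 (SE; edgeR adjusted p = 0.00141), was the lowest of the 81 members. Dnajc19, a J-domain subunit of the import motor, had a log2 fold change of -0.47 ± 0.11 (adjusted p = 0.00879). Dnajc15, its paralog, had one of -0.46 ± 0.13 (adjusted p = 0.0216), a call that was lost without Sham rat 32 or 38 or MI rat 36 or 61, with adjusted p-values from 0.052 to 0.0896. Dnaja3 (Tid1), which delivers clients to Hspa9, had one of -0.38 ± 0.09 (adjusted p = 0.00567). For each of these 3 genes the MI rats lay below all Sham rats, at 31.3 to 32.8 CPM against 37.8 to 46.0 CPM for Dnaja3. Dnajc4, Dnajc11 and Dnajc30, the other mitochondrial members, were not called, with log2 fold changes of -0.33, -0.05 and -0.16.

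**Figure D2:**
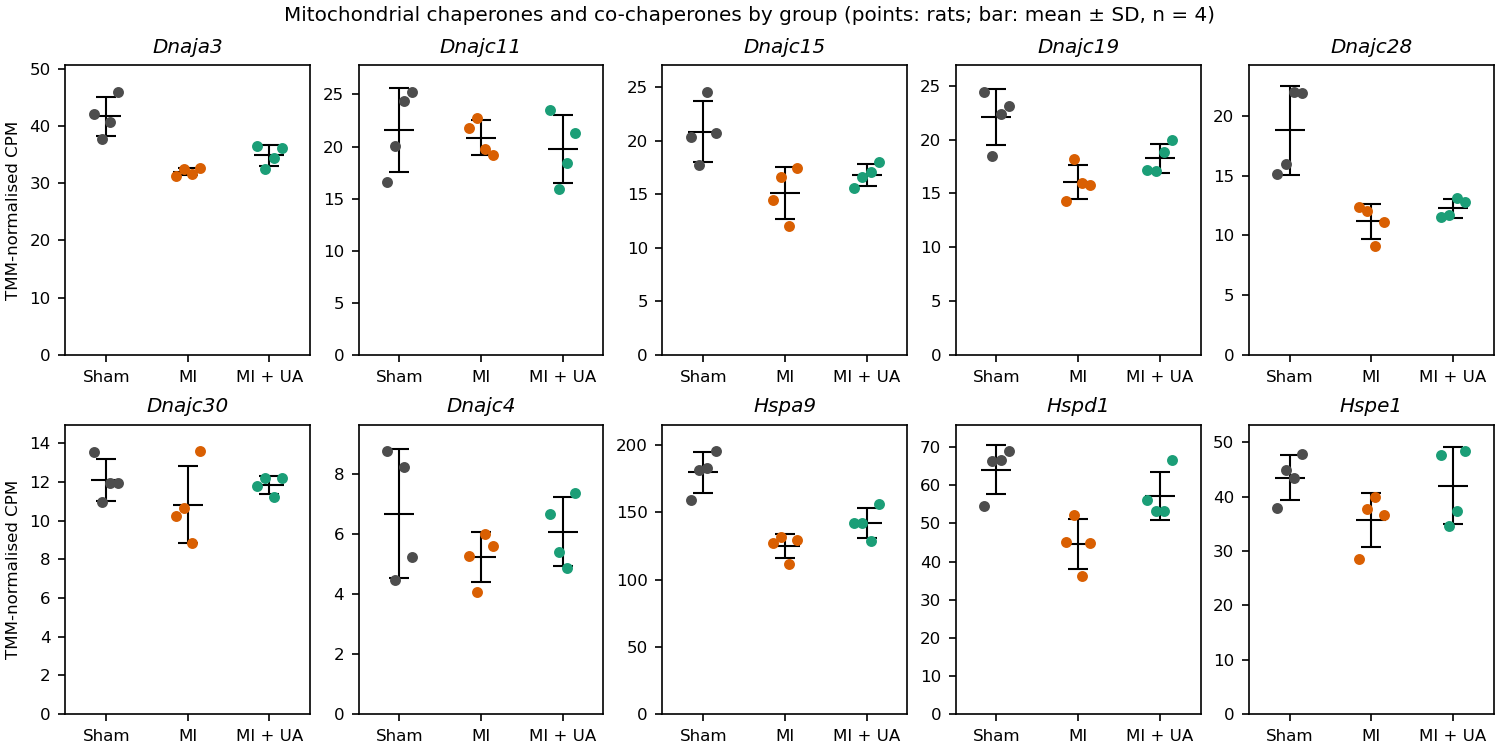
TMM-normalised CPM (y axis, from 0) of the 10 mitochondrial members in each rat of the 3 groups (x axis), with the bar giving the mean ± SD of 4 rats. For Hspa9, Hspd1, Dnaja3, Dnajc15, Dnajc19 and Dnajc28 all 4 MI points lie below the 4 Sham points, while Dnajc4, Dnajc11 and Dnajc30 overlap.

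Related genes of the same compartment outside the name rule lay in the same direction. Of 10 mitochondrial chaperone and protease genes from the list of related genes, all had a log2 fold change below 0 in MI, with a median of -0.35, and 5 were called lower and none higher. The largest were Clpx (-0.64 ± 0.09, edgeR adjusted p = 0.000132), the unfoldase of the ClpXP protease, Grpel1 (-0.55 ± 0.11, adjusted p = 0.00174), the nucleotide exchange factor of Hspa9, and the protease Clpp (-0.43 ± 0.14, adjusted p = 0.0479).

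Markers of cell types differed between the groups too. Cardiomyocyte markers were called lower for 8 of the 9 tested (median -0.43 on the log2 scale), and their summed level was 14174 to 14947 CPM in MI and 14623 to 17679 CPM in MI + UA against 19894 to 23308 CPM in Sham. Fibroblast markers were called higher for 6 of 8 (summed level 2188 to 3574 CPM in MI and 2205 to 3685 CPM in MI + UA against 1127 to 1439 CPM in Sham). Macrophage markers were called higher for 7 of 8 (153 to 204 CPM in MI and 138 to 215 CPM in MI + UA against 86.7 to 101.1 CPM in Sham). Smooth muscle markers were called higher in MI for 3 of 4 and endothelial markers lower for 1 of 6. Summed adipocyte, atrial and lymphocyte markers were at 1.19 to 12.5 CPM in all rats. In heart tissue, fewer cardiomyocytes and less RNA per cardiomyocyte cannot be told apart, and the part of this shift in the 6 mitochondrial calls was not tested.

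ER chaperones fold secreted and membrane proteins. Of 14 members in this class only Dnajc1 was called higher in MI, 10 had a log2 fold change above 0 and 4 below, and the median was 0.17. Dnajc1, a J-domain protein of the ER membrane, stood at 3.10 to 3.51 CPM in Sham, at 4.02, 4.86, 5.78 and 6.23 CPM in MI and at 4.17, 4.45, 5.28 and 5.91 CPM in MI + UA. Both MI groups lay above all Sham rats. Its log2 fold change was 0.65 ± 0.21 (SE; edgeR adjusted p = 0.045), and the adjusted p was under 0.05 in 6 of 19 alternatives, between 0.0219 and 0.139 over all of them. Dnajc3 was not called in the main fit, at 0.44 ± 0.15 (edgeR adjusted p = 0.0597). It stood at 8.58 to 10.2 CPM in Sham and at 11.1, 11.6, 11.98 and 16.6 CPM in MI, with rat 57 highest. Every MI rat was thus above every Sham rat. Dnajc3 was called with edgeR's filterByExpr (adjusted p = 0.0472). With rat 66 counted in MI it was called (0.44, edgeR adjusted p = 0.0406) and Dnajc1 was not.

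Hspa5 (BiP), the ER Hsp70 and sensor of unfolded protein, stood at 73.8, 81.4, 87.7 and 90.2 CPM in Sham, 76.5, 77.0, 91.2 and 139.7 CPM in MI and 76.2, 81.0, 103.4 and 119.9 CPM in MI + UA. The MI value of 139.7 CPM was that of rat 57, and the groups overlapped. The log2 fold change in MI was 0.20 ± 0.16 (edgeR adjusted p = 0.513) with rat 57 and -0.03 without it. Hsp90b1 (Grp94), the Hsp90 of the ER, stood at 91.4 to 120.5 CPM in Sham and at 109.0, 116.6, 122.4 and 179.2 CPM in MI, again with rat 57 as the highest. Its log2 fold change was 0.30 ± 0.13 (edgeR adjusted p = 0.173), and 0.12 without rat 57. The median of the 14 ER members was 0.09 without that rat. Of 15 related ER folding genes 13 lay above 0 and 2 were called higher, the calcium-binding chaperone Calr (0.35 ± 0.11, adjusted p = 0.034) and the disulphide isomerase Pdia3 (0.37 ± 0.10, adjusted p = 0.0151).

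None of the 8 small heat shock genes tested was called in MI with edgeR or DESeq2, where 4 lay above 0 and 4 below, with a median log2 fold change of -0.05. Hspb6 (Hsp20) stood at 2196 to 2451 CPM in Sham and 1907 to 2390 CPM in MI, a log2 fold change of -0.12 ± 0.10 (edgeR adjusted p = 0.48). Hspb7, the cardiovascular small heat shock protein, stood at 923 to 1051 CPM in Sham and 921 to 1103 CPM in MI, a log2 fold change of 0.02 ± 0.10. Cryab (alpha B-crystallin), which binds desmin and titin in the sarcomere, stood at 761, 820, 916 and 957 CPM in Sham, at 619, 626, 747 and 812 CPM in MI and at 602, 613, 785 and 869 CPM in MI + UA. One MI rat overlapped the lowest Sham rat, and the log2 fold change was -0.30 ± 0.12 (edgeR adjusted p = 0.113). Cryab was called in 1 of 19 alternatives, that with only Sham and MI in the fit (-0.32, edgeR adjusted p = 0.0345), and its edgeR adjusted p was 0.0507 without rat 57.

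Hspb8, the partner of Bag3, had a log2 fold change of -0.17 ± 0.11 in MI, and Hspb2 and Hspb3, the pair of muscle small heat shock genes, had 0.20 ± 0.19 and 0.21 ± 0.32. Bag3, the co-chaperone that with Hspb8 and Hspa8 clears damaged filamin at the Z-disc, stood at 138.9, 147.8, 148.9 and 157.4 CPM in Sham, at 98.8, 112.6, 116.7 and 132.8 CPM in MI and at 88.99, 106.2, 131.5 and 158.8 CPM in MI + UA. MI rats lay below all Sham rats, but the log2 fold change of -0.37 ± 0.13 did not pass the test (edgeR adjusted p = 0.0777). The adjusted p of Bag3 was under 0.05 in 5 of 19 alternatives and ranged from 0.00662 to 0.222. Among these it was 0.0441 without rat 57. The other 5 Bag genes were not called, with log2 fold changes from -0.22 to 0.05.

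None of the cytosolic Hsp70, Hsp110 and Hsp90 members was called in MI with edgeR or DESeq2. Hspa8, the constitutive Hsp70, stood at 207.4 to 291.5 CPM in Sham and 165.0 to 307.5 CPM in MI, a log2 fold change of -0.21 ± 0.16 (edgeR adjusted p = 0.487). Without rat 57, the highest MI rat, it was -0.40 (edgeR unadjusted p = 0.0131, adjusted p = 0.0902). The heat shock factors were not called either. Hsf1 stood at 15.4 to 19.2 CPM in Sham and 15.8 to 17.6 CPM in MI (log2 fold change -0.11 ± 0.11), and Hsf2 at 6.73 to 12.9 CPM and 7.16 to 8.70 CPM (-0.27 ± 0.17). Of the J-domain genes outside mitochondria and the ER, 0 of 24 tested were called with edgeR in the main fit. Dnaja2 had an adjusted p of 0.0802 there and Dnajb6 one of 0.0704, and both were called lower with DESeq2. With edgeR Dnaja2 was called without MI rat 57 (-0.30, adjusted p = 0.0415) and Dnajb6 without Sham rat 12 (-0.31, adjusted p = 0.0331). Among the 24 genes, Dnajc7, an Hsp70 and Hsp90 linker, had a log2 fold change of 0.04 ± 0.11, Dnaja4 one of -0.18 ± 0.12 and Dnajb5 one of -0.13 ± 0.19. Among 16 related partners of Hsp90 and Hsp70, 2 were called lower in MI, the myosin chaperone Unc45b (-0.57 ± 0.13, adjusted p = 0.00614) and the immunophilin Fkbp4 (-0.45 ± 0.14, adjusted p = 0.0332), and of 13 chaperonin and prefoldin genes 0 were called, with a median of -0.16.

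**Figure D3:**
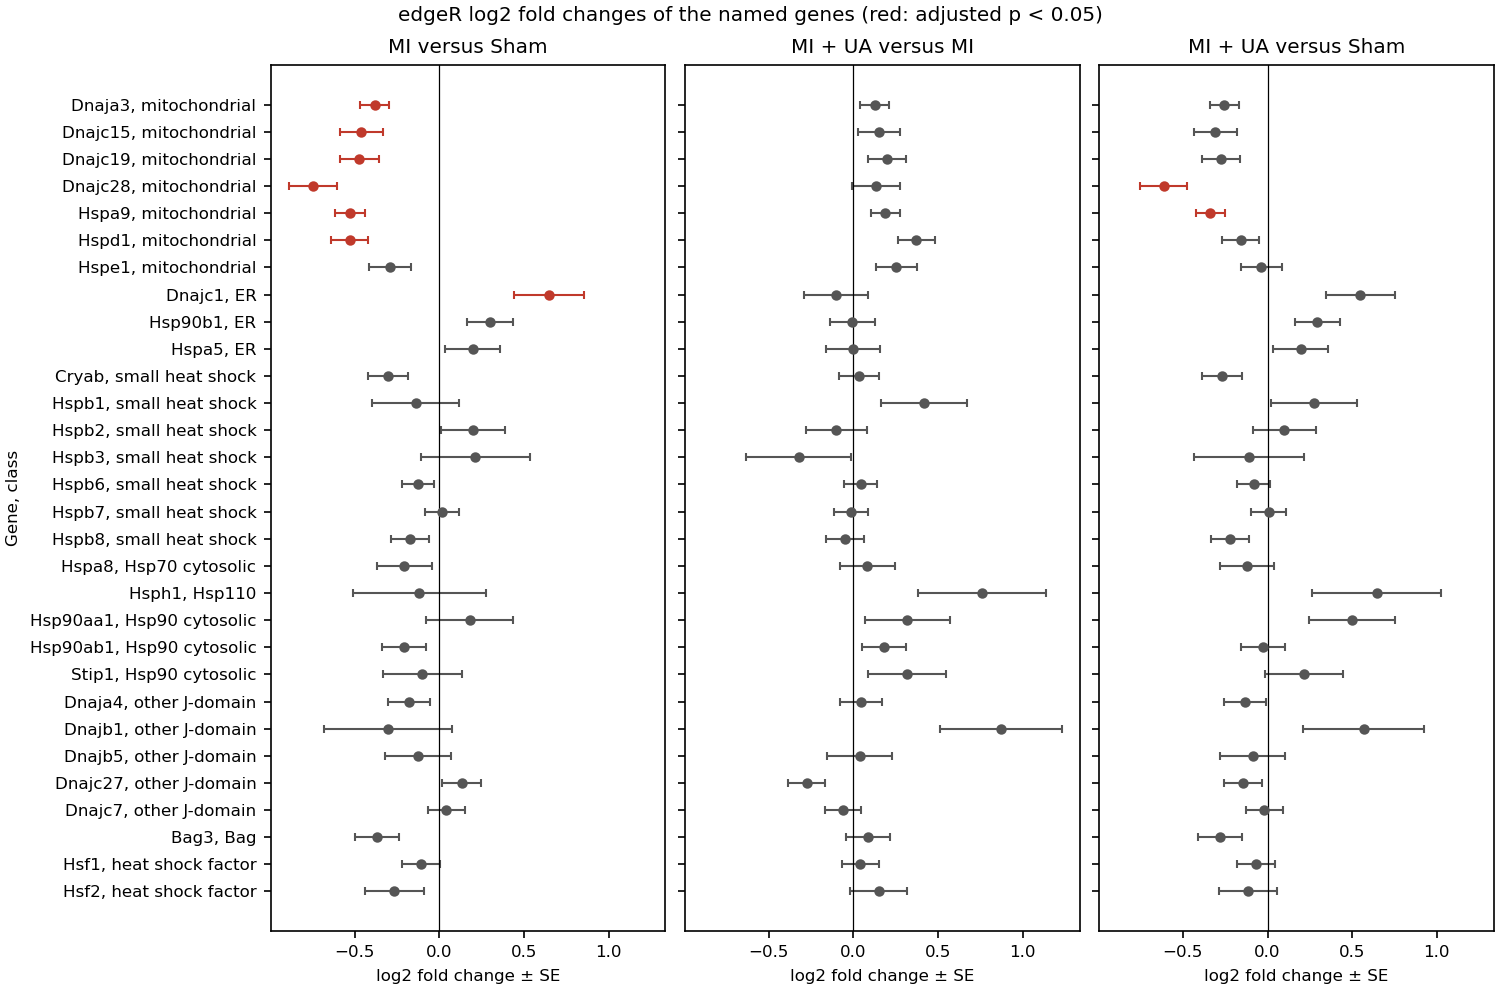
Log2 fold change ± SE (x axis) of the 30 named members (y axis, with class) in the 3 comparisons, red where the edgeR adjusted p was under 0.05. The 7 red points of MI versus Sham are Dnajc1 and 6 mitochondrial genes, none is red in MI + UA versus MI, and Dnajc28 and Hspa9 are red in MI + UA versus Sham.

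Several cytosolic chaperone genes spread widely among the rats of each group. Hsph1 (Hsp105), an Hsp110 that resets Hsp70, stood at 18.5, 26.6, 31.2 and 59.1 CPM in Sham, at 16.5, 21.2, 27.1 and 65.1 CPM in MI and at 21.2, 41.5, 68.3 and 77.9 CPM in MI + UA. Dnajb1 (Hsp40), the J-domain partner of inducible Hsp70, stood at 16.2, 20.0, 22.7 and 34.1 CPM in Sham, at 9.96, 12.3, 17.6 and 39.4 CPM in MI and at 12.8, 25.8, 46.0 and 50.1 CPM in MI + UA. For both genes the highest Sham rat was rat 12, the highest MI rat was rat 57, and rats 29 and 66 were the 2 highest of MI + UA. The 3 groups overlapped over most of their range, and the log2 fold changes in MI were -0.12 ± 0.39 for Hsph1 and -0.30 ± 0.38 for Dnajb1. Without rat 57 they were -0.65 for Hsph1 (edgeR adjusted p = 0.284) and -0.81 for Dnajb1 (edgeR unadjusted p = 0.0259, adjusted p = 0.140), while without Sham rat 12 they were 0.30 for Hsph1 and -0.055 for Dnajb1.

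The same order of rats was found for Hsp90aa1, Hsp90ab1, Stip1 and Dnaja1. Hsp90aa1, the stress-inducible cytosolic Hsp90, stood at 69.1, 104.2, 104.9 and 125.9 CPM in Sham, at 82.0, 85.4, 93.5 and 201.5 CPM in MI and at 87.7, 117.1, 162.2 and 201.5 CPM in MI + UA. Stip1 (Hop), which joins Hsp70 to Hsp90, stood at 36.4, 40.1, 45.1 and 57.6 CPM in Sham, at 32.3, 34.7, 37.8 and 65.1 CPM in MI and at 30.1, 39.2, 62.7 and 73.0 CPM in MI + UA. Dnaja1, a J-domain partner of Hspa8 picked out after its values were seen, stood at 36.9 to 62.0 CPM in Sham, 27.9 to 85.0 CPM in MI and 35.1 to 93.2 CPM in MI + UA. Hsp90ab1, the constitutive Hsp90, kept this order over a narrower range of 126.4 to 195.7 CPM in the 12 rats. Its log2 fold change in MI was -0.21 ± 0.13, and -0.35 without rat 57 (edgeR unadjusted p = 0.00806, adjusted p = 0.0656).

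This order, with rat 12 highest in Sham, rat 57 highest in MI and rats 29 and 66 the 2 highest in MI + UA, was noticed in the data, so its counts are a description with no test. It held for 6 of 81 members and for 390 of the 18182 genes tested (2.14%). The same 6 members held it with DESeq2 size factors and with scaling to nuclear reads alone, both chosen after seeing the data. Beyond the members it held for 5 of 16 Hsp90 and Hsp70 partners, including Chordc1 and Ahsa2. It also held for 3 of 13 chaperonin and prefoldin genes (Cct3, Cct4 and Cct7). No member of the ER (0 of 14), mitochondrial (0 of 10), small heat shock (0 of 8) or cytosolic Hsp70 (0 of 6) classes held it. Nor did any Bag (0 of 6) or heat shock factor (0 of 4) gene. Taken alone, rat 57 was the highest of MI for 10 of 14 ER members and 48 of 81 members, against 5254 of 18182 genes. The SD of log2 CPM within groups was 0.81 for Hsph1, 0.77 for Dnajb1, 0.57 for Dnaja1, 0.51 for Hsp90aa1, 0.46 for Stip1 and 0.24 for Hsp90ab1. The median over the 11986 genes with an average log2 CPM of at least 1 was 0.21. Hsph1 stood at the 99.4th percentile of these genes and Hsp90ab1 at the 58.7th. A wide spread also occurred without the order, as for Dnajc9 (0.72, 99.0th percentile), and the order without a wide spread, as for Cct3 (0.15). Of the 5 promoters matched for the 6 members, those of Hsph1 and Dnaja1 held the heat shock element shown above. Those of Dnajb1, Stip1 and Hsp90ab1 did not. Of the 59 promoters of other tested members 3 held one, those of Hspa8, Hspd1 and Hspe1, which lacked the order. The 6 members were picked from these same data, and a link between element and order was not tested.

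Other measures had the same order. The share of reads on mitochondrially encoded genes was 58.6% in rat 12, the highest of Sham, 57.6% in rat 57, the highest of MI, and 56.8% and 54.7% in rats 66 and 29, the 2 highest of MI + UA. The share of reads that fell on more than 1 gene and were not counted was 3.80% in rat 12, 3.62% in rat 57 and 3.84% and 3.82% in rats 66 and 29, again the highest of each group. The TMM scaling factor was lowest in the same rats, at 0.890 in rat 12, 0.934 in rat 57 and 0.934 and 1.01 in rats 66 and 29. Depth did not follow it in every group, since rats 66 and 29 had the most reads of all libraries (19031695 and 17382116) and rat 57 the fewest of MI (6829591). The part of these measures and of depth in the spread was not tested. Hspb1 (Hsp27), also heat-inducible, was highest in rat 57 among MI (137.8 CPM) and in rats 29 and 66 of MI + UA (169.3 and 182.3 CPM, against 56.4 and 88.2 CPM in the other two), but its Sham rats lay close together at 92.1 to 110.6 CPM.

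**Figure D4:**
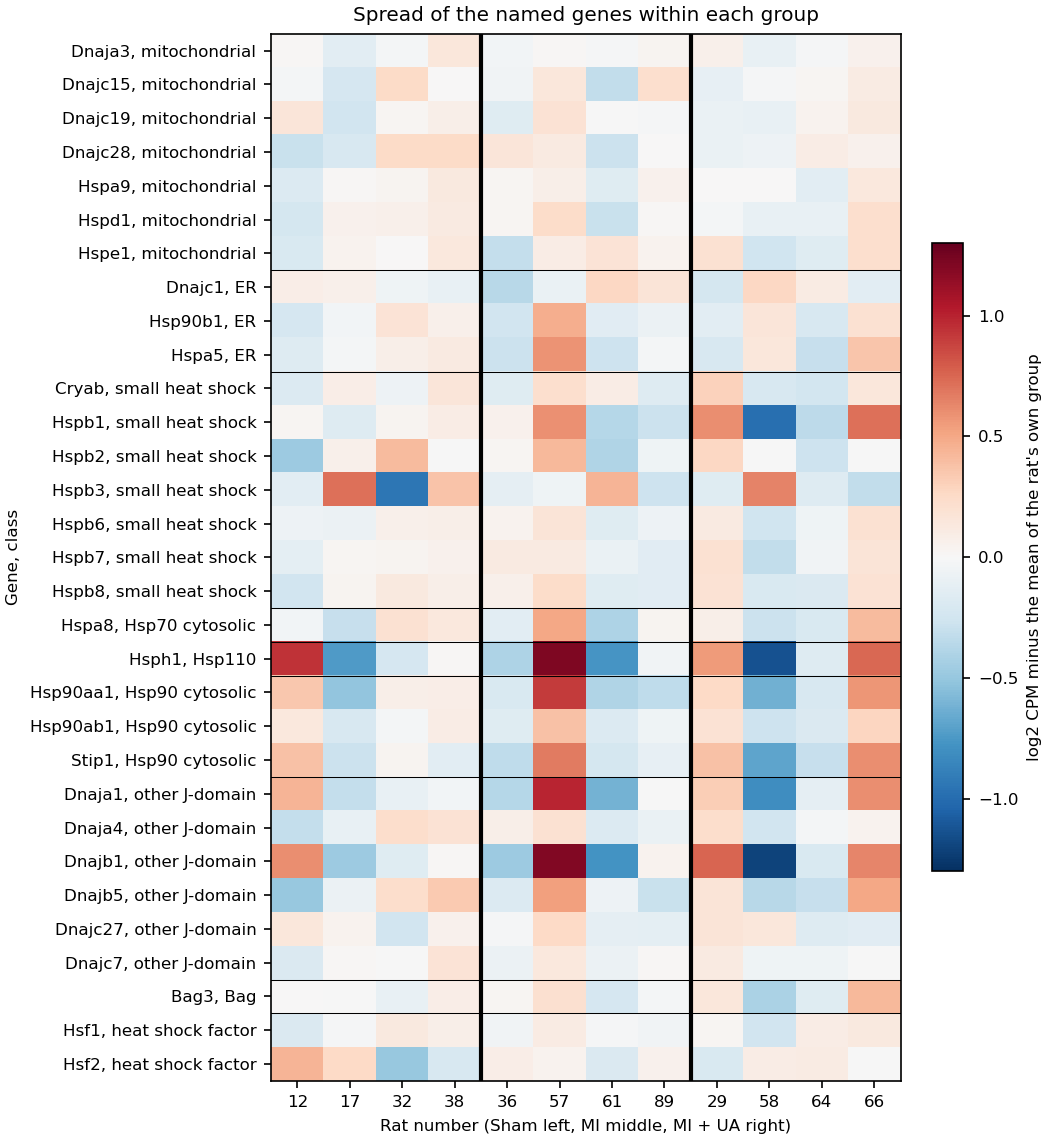
Log2 CPM of the 30 named members and Dnaja1 (y axis, with class) in each rat (x axis) as the difference from the mean of the rat's own group, red above and blue below. Hsph1, Dnajb1, Dnaja1, Hsp90aa1 and Stip1 are red in rats 12, 57, 29 and 66, while the mitochondrial rows at the top are pale.

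The comparison of MI + UA with MI asked which chaperones differed with UA after infarction. No gene was called at an adjusted p under 0.05 with edgeR (0% of 18182 genes) or DESeq2, and the smallest edgeR adjusted p of a member was 0.9998. At an unadjusted p under 0.05 there were 5 of 81 members with edgeR, against 3.79% of all genes. With DESeq2 there were 3 of 81, against 481 of the 18182 genes. All values in this comparison are therefore differences that did not pass the correction. Hspd1 was the only member whose groups did not overlap, against 2.34% of all genes, with every MI + UA rat above every MI rat. Its log2 fold change was 0.37 ± 0.11 (SE; edgeR unadjusted p = 0.00287).

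Hspd1 kept an unadjusted p under 0.05 in 18 of 19 alternatives, Hspa9 in 11 and Hspe1 in 6. The exception for Hspd1 was rat 66 counted in MI, where its log2 fold change was 0.14 (edgeR unadjusted p = 0.306). Without rat 66 in either group it was 0.29 (edgeR unadjusted p = 0.0175). Hspa9 had a log2 fold change of 0.19 ± 0.09 (edgeR unadjusted p = 0.0415) and Hspe1 one of 0.25 ± 0.12 (edgeR unadjusted p = 0.0495), and both were 0.07 with rat 66 counted in MI. Of the 10 mitochondrial members 9 had a log2 fold change above 0, with a median of 0.17, where the median of all genes was 0.00471, and the median ranged from 0.07 to 0.22 over the alternatives. Related mitochondrial chaperone and protease genes had a median of 0.07. Cardiomyocyte markers were above 0 for 9 of 9 in this comparison as well, with a median of 0.04 and 0 called. They ran from 0.0018 to 0.39. Of the 9 markers, 1 had an edgeR unadjusted p under 0.05 and 1 had groups that did not overlap.

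Dnajb1 had a log2 fold change of 0.87 ± 0.36 (SE; edgeR unadjusted p = 0.0246) in MI + UA against MI, with overlapping groups, and 0.29 with rat 66 counted in MI. Without MI rat 57 it was 1.38. Hsph1 had one of 0.76 ± 0.38, which was 0.11 with rat 66 counted in MI and 1.296 without rat 57. Dnajc27, a J-domain protein with a Ras-like GTPase domain, had a log2 fold change of -0.28 ± 0.11 (edgeR unadjusted p = 0.0217), and -0.14 with rat 66 counted in MI. The cytosolic Hsp90 genes and Stip1 had values of 0.18 to 0.32, and all 3 turned below 0 with rat 66 counted in MI. Small heat shock genes had a median of 0.01, and ER members one of -0.02.

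Against Sham, MI + UA rats had 2 members called lower, where 4.27% of all genes were called lower, and 0 called higher, where 5.16% of all genes were. These were Dnajc28 (log2 fold change -0.61 ± 0.14, edgeR adjusted p = 0.0071) and Hspa9 (-0.34 ± 0.09, adjusted p = 0.0147). Hspa9 lost the call without Sham rat 38 or MI + UA rat 64, with adjusted p-values of 0.0652 and 0.0581. DESeq2 called 3 members, adding Dnaja3 (-0.26, DESeq2 adjusted p = 0.0442, against an edgeR adjusted p of 0.0686). Across the 18182 genes tested, DESeq2 called 1921. Bag3, at -0.28 ± 0.13 against Sham (edgeR adjusted p = 0.204), was -0.44 and called with rat 66 counted in MI (edgeR adjusted p = 0.0437) and with that rat left out (edgeR adjusted p = 0.0159). All 10 mitochondrial members lay below 0 against Sham with a median of -0.21. Hspd1 had a log2 fold change of -0.16 ± 0.11 (edgeR adjusted p = 0.439) against Sham. It was -0.24 with rat 66, its highest MI + UA rat, counted in MI, and -0.24 to -0.12 when 1 rat was left out. Hspd1 was called against Sham in 0 of the 19 alternatives. This comparison shares its Sham rats with that of MI, and its MI + UA rats with the one above.

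Ratios of partner genes within a library do not depend on scaling. The log2 ratio of Hsp90aa1 to Hsp90ab1 reads was -0.75 ± 0.22 (SD, n = 4) in Sham, -0.42 ± 0.36 in MI and -0.25 ± 0.27 in MI + UA. Its largest difference, 0.50 ± 0.18 (SE) between MI + UA and Sham, had an exact permutation p of 0.0571 (two-sided) and an adjusted p of 0.343 over the 12 tests of 4 ratios and 3 comparisons. The log2 ratio of Bag3 to Bag1 was 3.64 ± 0.06 in Sham, 3.49 ± 0.08 in MI and 3.52 ± 0.39 in MI + UA, where it ran from 3.19 in rat 64 to 4.05 in rat 66. MI differed from Sham by -0.16 ± 0.05 (exact permutation p = 0.0571, adjusted p = 0.343). The log2 ratio of Hspd1 to Hspe1 was 0.56 ± 0.04 in Sham, 0.32 ± 0.34 in MI and 0.45 ± 0.16 in MI + UA. Its MI rats spread from -0.15 in rat 61 to 0.66 in rat 36, while the Sham rats lay between 0.53 and 0.62. The log2 ratio of Cryab to Hspb1 was 3.06 ± 0.20 in Sham, 2.93 ± 0.37 in MI and 2.67 ± 0.58 in MI + UA. None of the 12 tests passed. The smallest p that 4 rats against 4 allow is 0.0286, which for 1 ratio alone becomes 0.343 after adjustment, and 7 of the 12 would have had to reach it to pass, so the missing calls say little about these ratios.

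**Figure D5:**
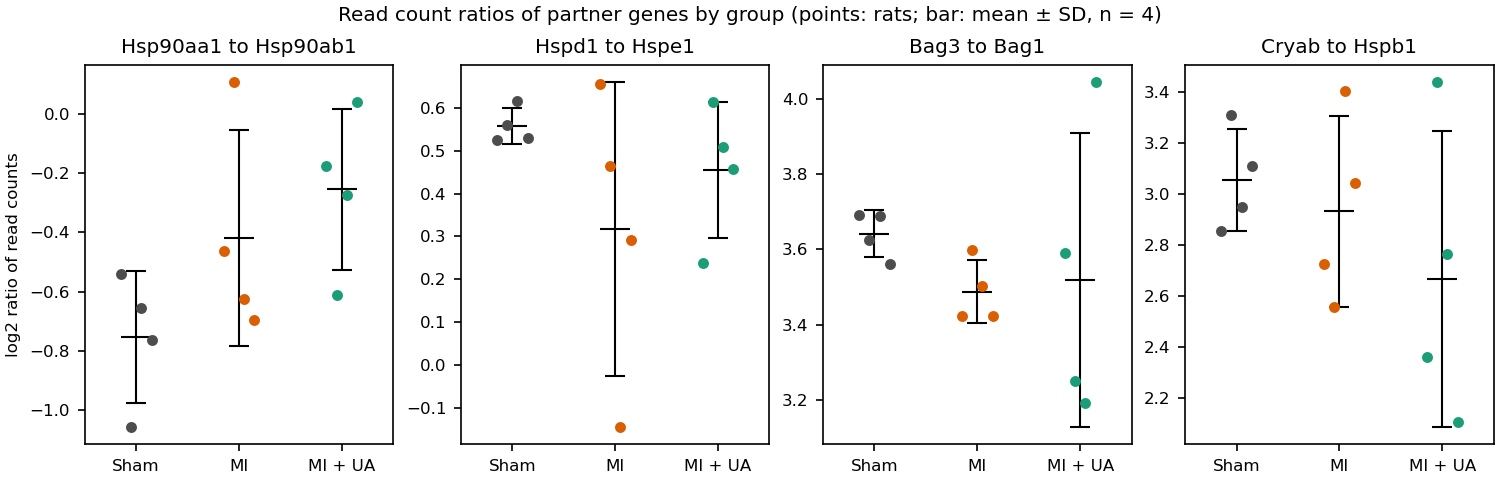
Log2 ratio of read counts (y axis) of 4 pairs of partner genes in each rat of the 3 groups (x axis), with the bar giving the mean ± SD of 4 rats. The Sham rats lie close together for Hspd1 to Hspe1 and for Bag3 to Bag1, and the groups overlap for all 4 pairs.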

How the data were processed

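RNA from fixed left ventricular sections was sequenced as read pairs from strand-specific libraries, 1 per rat. The study's methods and the extraction label give rRNA depletion, while another label field gives poly(A) RNA. The authors mapped them with STAR 2.6.1c to the rat genome build mRatBN7.2, per the labels and the study's methods, and deposited htseq-count read counts per Ensembl gene, without normalization. Reads outside genes (37.9% to 46.6% of the counted total had no feature) were left out of library sizes. One more MI + UA library, set aside by the authors, is not analysed here. Multi-mapped reads were not counted, so close copies such as the Hsp90aa1 and Hsp90ab1 pair and Hspa8 with its pseudogenes are uncertain.

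Counts were compared with edgeR 4.0.16 (R 4.3.3) by the quasi-likelihood test after TMM normalization, in 1 fit of 3 groups with 4 rats each, on genes with at least 10 counts in total. SE was derived from the F statistic. P-values were Benjamini-Hochberg adjusted over 18182 genes, and 0.05 was the threshold. The script was tested on simulated data. Alternatives were DESeq2 1.42.0, its size factors within edgeR, other filters, TMM without mitochondrially encoded genes, 2-group fits, rat 66 counted in MI or left out, and leaving out each rat. The class medians under each alternative were added after seeing the data. Ratios were tested with a two-sided exact permutation test on counts plus 1. Promoter windows came from RefSeq (GRCr8), matched by symbol, and genes were not located in the files' own build. The members, classes, related genes and markers were chosen with earlier results of these data known. Named with values were members called in any comparison, members with an unadjusted p under 0.05 in MI + UA versus MI, and a list of the best-known chaperones, with the up to 3 largest called genes of each related list. Other genes given by name, among them Dnajc4, Dnajc11, Dnajc30, Dnaja2 and Dnajb6, were chosen after their values were seen. Figures were drawn with matplotlib 3.10.9. The edgeR and DESeq2 p-values weigh the difference between groups against the spread between single rats. Permutation p-values give the share of regroupings of the rats with a difference at least as large. CPM precision is limited by read depth.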

Additional observations from a re-analysis of the deposited data

Results flagged for a closer look

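In 102 groups of 4 rats (30 named members and 4 ratios in 3 groups), a single rat stood apart from the other 3 in 4 groups, where chance alone marks about 1 group in 20. Rat 57 was the highest of MI for Hsp90aa1 at 201.5 CPM, against 82.0 to 93.5 CPM in the other MI rats, and for Stip1 at 65.1 CPM, against 32.3 to 37.8 CPM. Rat 61 was the lowest of MI for Hsf2 at 7.16 CPM, against 8.47 to 8.70 CPM. Rat 58 was the highest of MI + UA for Hspb3 at 3.08 CPM, against 1.58 to 1.77 CPM, a gene with few reads. Without rat 57 the log2 fold change of Hsp90aa1 in MI versus Sham went from 0.18 to -0.22, and it did not pass the test with or without that rat. Rat 57 also had the highest mitochondrially encoded share of reads, the highest share of ambiguous reads and the lowest TMM factor of the MI rats, and their part was not tested.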

How the results depend on the processing

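The fall of the mitochondrial members in MI kept its direction for Hspa9, Hspd1, Dnajc28, Dnajc19, Dnajc15 and Dnaja3 in all 19 alternatives, and Hspa9, Dnajc28, Dnajc19 and Dnaja3 kept their call in all of them. No paired analysis was possible because every rat has its own number and belongs to 1 group. The number of ER members called higher in MI, 1 in the report, was 0 with DESeq2, without a count filter and with only 2 groups in the fit. It was 2 with edgeR's filterByExpr (Dnajc1 and Dnajc3) and 0 to 1 when a rat was left out. With rat 66 counted in MI it was 1, but this was Dnajc3 (edgeR adjusted p = 0.0406) and not Dnajc1 (edgeR adjusted p = 0.0589). In MI + UA versus MI the number of genes called, 0 in the report, was 3 without a count filter and 0 to 1 when a rat was left out (1 without MI rat 36), and none was a member. Members called in MI + UA versus Sham, 2 in the report, were 4 with filterByExpr and 1 to 3 when a rat was left out, and the mitochondrial ones were 1 to 2 (1 without Sham rat 38 or MI + UA rat 64).

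Of the 90 named fold changes, 34 changed sign in at least 1 alternative, and each of these had an unadjusted p of 0.0968 or more (edgeR, or DESeq2 for its own alternative) before and after the change. Moving rat 66 to MI turned these log2 fold changes. In MI versus Sham they were 0.28 for Hsph1, 0.11 for Stip1, 0.095 for Dnajb1 and 0.12 for Hspb1. In MI + UA versus MI they were -0.18 for Bag3, -0.039 for Hsf1, -0.18 for Hspa8, -0.11 for Hsp90aa1, -0.017 for Hsp90ab1, -0.12 for Stip1, -0.27 for Dnajb5, -0.047 for Cryab, -0.084 for Hspb1 and -0.075 for Hspb6. In MI + UA versus Sham they were -0.0034 for Stip1, 0.012 for Hspb3 and -0.050 for Hspb7. Hspb7 in that comparison was also -0.0019 with DESeq2, -0.0020 with its size factors in edgeR, -0.0058 with TMM without mitochondrially encoded genes and -0.0040 with 2 groups in the fit.

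When 1 rat was left out, values that turned in MI versus Sham ranged from -0.029 to 0.29 for Hspa5, from -0.65 to 0.30 for Hsph1, from -0.22 to 0.31 for Hsp90aa1, from -0.36 to 0.048 for Stip1, from -0.020 to 0.11 for Dnajc7 and from -0.023 to 0.065 for Hspb7. In MI + UA versus MI they ranged from -0.074 to 0.20 for Bag3, from -0.089 to 0.17 for Hsp90b1, from -0.14 to 0.22 for Hspa5, from -0.0036 to 0.11 for Hsf1, from -0.072 to 0.27 for Hspa8, from -0.043 to 0.12 for Dnaja4, from -0.15 to 0.24 for Dnajb5, from -0.074 to 0.11 for Cryab, from -0.21 to 0.032 for Hspb2, from -0.026 to 0.12 for Hspb6, from -0.081 to 0.082 for Hspb7 and from -0.12 to 0.034 for Hspb8. In MI + UA versus Sham they ranged from -0.13 to 0.00017 for Hsf1, from -0.25 to 0.046 for Hsf2, from -0.13 to 0.054 for Hsp90ab1, from -0.0029 to 0.40 for Stip1, from -0.11 to 0.042 for Hspe1, from -0.28 to 0.033 for Dnajb5, from -0.081 to 0.048 for Dnajc7, from -0.041 to 0.24 for Hspb2, from -0.33 to 0.13 for Hspb3 and from -0.051 to 0.10 for Hspb7.

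Differences of log2 ratios with rat 66 counted in MI were, in MI + UA versus MI, -0.027 for Hsp90aa1 to Hsp90ab1, -0.25 for Bag3 to Bag1 and 0.087 for Cryab to Hspb1. With 1 rat left out they ranged from -0.017 to 0.25 for Hspd1 to Hspe1 and from -0.14 to 0.14 for Bag3 to Bag1, and in MI versus Sham from -0.28 to 0.00088 for Cryab to Hspb1. The ratio of Hspa1a and Hspa1b to Hspa8 was not run. The cause of these changes was not tested.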
